A study of Homo sapiens with 12 samples.

Results

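The p300 core fusion was compared with dCas9 alone in HEK293T, an established line derived from human embryonic kidney. The comparison holds 6 of the 12 libraries of the study, chosen by the label for the transfected gene: 3 libraries with dCas9-p300 core and 3 with dCas9. Cells of both groups also received guide RNAs for 4 sites at IL1RN, so the groups differ in the fused protein and not in the guides. The other 6 libraries, 3 with dCas9-VP64 (dCas9 with a viral activation domain) and 3 with dCas9-p300 D1399Y (the core with a change that removes its acetyltransferase activity), received the same guide set. They are used to estimate the spread and for comparison. Plasmids were delivered by lipid transfection and no sorting step is given in the labels, so each library is bulk RNA of transfected and untransfected cells together. Fewer responding cells and less RNA per cell cannot be told apart in such samples. The question is which genes differed in RNA when the acetyltransferase core was added to the DNA-bound protein.

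The protein dCas9 is a Cas9 whose nuclease sites are inactive, so that it binds the DNA matched by its guide RNA without cutting it. The acetyltransferase p300, encoded by EP300, transfers acetyl groups to lysines of histone tails, and acetylated histones mark active promoters and enhancers, where bromodomain and PHD finger proteins bind them. The secreted product of IL1RN occupies the interleukin 1 receptor without starting a signal, which keeps interleukin 1 itself from acting.

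The targeted gene and KDR were described first, with their promoters. The windows below are the 250 bases before an annotated start in RefSeq on GRCh38.p14, printed 5′ to 3′ on the strand of the gene. They are shown because these genes had the largest fold changes upward among the 14613 genes tested. RefSeq lists 3 such windows for IL1RN, of which the most upstream and the most downstream are printed, and 1 for KDR. Guide sequences were not used here, so no window is tied to a guide site. Capitals mark matches, on either strand, to a TATA box core (TATAAA), an AP-1 site (TGACTCA) or a GC box core (GGGCGG). The cAMP response element (TGACGTCA) was also searched.
IL1RN upstream window, chr2:113117721-113117970, plus strand: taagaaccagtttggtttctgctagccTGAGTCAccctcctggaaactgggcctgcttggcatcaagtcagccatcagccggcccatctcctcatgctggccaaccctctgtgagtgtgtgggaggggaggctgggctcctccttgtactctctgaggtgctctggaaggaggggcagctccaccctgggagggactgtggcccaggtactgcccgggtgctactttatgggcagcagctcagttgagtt
IL1RN downstream window, chr2:113127348-113127597, plus strand: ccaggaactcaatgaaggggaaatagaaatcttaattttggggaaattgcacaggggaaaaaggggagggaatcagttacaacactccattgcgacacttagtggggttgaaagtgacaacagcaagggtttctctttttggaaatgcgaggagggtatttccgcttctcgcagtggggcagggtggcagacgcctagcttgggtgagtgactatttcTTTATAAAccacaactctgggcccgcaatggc
KDR window, chr4:55125596-55125845, minus strand: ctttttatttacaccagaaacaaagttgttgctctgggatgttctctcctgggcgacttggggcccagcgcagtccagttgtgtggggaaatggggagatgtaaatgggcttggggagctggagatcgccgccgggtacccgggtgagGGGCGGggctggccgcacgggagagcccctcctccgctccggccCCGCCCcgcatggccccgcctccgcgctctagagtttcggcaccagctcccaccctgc
The upstream IL1RN window held 1 AP-1 match and 2 CpG dinucleotides in 59.6% GC. The downstream window held 6 CpG dinucleotides in 48.4% GC, and its capitals are 1 TATA box core overlapped by the same motif on the other strand. KDR had 17 CpG dinucleotides in 65.2% GC and 2 GC box matches. Windows of tested genes had a median of 20 CpG dinucleotides (quartiles 11 and 28) and 64.4% GC. Of all 35116 windows in the RefSeq table, 10.7% held a TATA box core, 4.2% an AP-1 match, 1.65% a cAMP response element and 42.6% a GC box core. A match is a run of letters only, and no binding was measured.

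IL1RN RNA rose in the core libraries. Levels are in CPM, that is, counts divided by the TMM-scaled total of the library, as edgeR scales them. IL1RN stood at 4.24, 6.68 and 9.23 CPM in dCas9 replicates 1, 2 and 3, and at 73.4, 87.6 and 88.9 CPM in core replicates 1, 2 and 3. The lowest core library lay far above the highest dCas9 library. The difference was 12.6-fold (95% interval 8.59 to 18.5; log2 fold change 3.66 ± 0.26, standard error; adjusted p = 1.85e-05, edgeR quasi-likelihood test over all genes, two-sided). IL1RN was the 1 gene past the threshold of 0.05 on the adjusted p, which is 0.00684% of the 14613 genes tested, and 0 genes (0%) were past it in the lower direction. At an unadjusted p under 0.05 edgeR placed 297 genes (2.03%) higher and 157 (1.07%) lower. These are 454 genes, fewer than the 730.7 expected at that p if no gene differed. The design cannot give an exact permutation p under 0.10 with 3 libraries against 3, so tests rest on the spread pooled over all genes and groups. The labels state only that transfections were in triplicate, and p-values therefore measure the spread between these samples, which may be technical. Within the CV41 pool, which excludes core replicate 3, the IL1RN log2 fold change was 3.61 ± 0.29 (adjusted p = 0.000652, edgeR).

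KDR, the endothelial receptor tyrosine kinase for vascular endothelial growth factor, had the next largest fold change among genes with higher values. It stood at 0.848, 1.67 and 0.738 CPM with dCas9 and at 7.13, 8.86 and 8.92 CPM with the core. The groups did not overlap, and 3.89% of all tested genes had 3 core libraries above 3 dCas9 libraries. The log2 fold change was 2.83 ± 0.43 (adjusted p = 0.052, edgeR), so KDR missed the threshold. The dCas9 values rest on 12 reads over 3 libraries and the core values on 107. KDR passed with DESeq2 and not without dCas9 replicate 3 (log2 2.66, adjusted p = 0.12, edgeR) or within CV41 (adjusted p = 0.621, edgeR).

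Other ligands and receptors of the vascular endothelial growth factor family had smaller values. Its 9 tested members, KDR included, had 6 values above 0 and a median log2 of 0.08, against 7672 of 14613 genes (52.5%) above 0 and a median of 0.02 over all genes. Without dCas9 replicate 3 it had 4 of 9 above 0 and a median of -0.05. The co-receptor NRP2 had log2 0.30 ± 0.23, and 0.02 without that library, and the ligand VEGFB had -0.43 ± 0.21, and -0.11 without it. Several endothelial markers were at or near 0: ROBO4 and ERG had 0 counts in all 6 libraries, CDH5 had 1 read with dCas9 and 0 with the core, and VWF had 1 and 3 reads. The 13 endothelial markers, KDR included, summed to 42.8 to 87.3 CPM with dCas9 and 82.9 to 88.6 CPM with the core, and 10 of the 13 were below the filter on low counts. Most of that sum was FLT1, another receptor of the family, at 68.1, 80.4 and 32.1 CPM with dCas9 and 66.8, 71.8 and 64.8 CPM with the core. EMCN, tested like KDR and FLT1, had log2 -0.02 ± 0.34 with overlapping groups. Not all low markers were alike in the groups. ESAM, an adhesion molecule of endothelial junctions, had 11 reads with dCas9 (0.848, 1.67 and 0.369 CPM) and 33 with the core (2.38, 2.5 and 2.88 CPM), without overlap. It was picked after its values were seen. The share of features below the filter without overlap was not computed, so nothing is read from it. PECAM1, another endothelial adhesion molecule, had 12 and 21 reads, with overlap. Reads of TEK (12 and 11) and ENG (8 and 6) were fewer with the core, although the core group held more reads in all. None of these markers below the filter was tested, and their part in the KDR difference was not tested.

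EP300 counts can include reads of the transfected plasmid, because both p300 plasmids carry the core, so they do not measure the gene of the cell. EP300 stood at 124, 145 and 51.7 CPM with dCas9 and at 388, 338 and 447 CPM with the core. All core libraries were above all dCas9 libraries, and dCas9 replicate 3 was the lowest of the 6. The log2 fold change was 1.86 ± 0.27 (adjusted p = 0.052, edgeR). With dCas9 replicate 3 left out it was 1.54 and passed (adjusted p = 3.23e-05, edgeR). Against D1399Y, whose plasmid carries the mutated core, EP300 stood at log2 -0.14 ± 0.26.

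Below these genes came 8 others with an unadjusted p under 0.001, none of which passed over all genes in edgeR. With IL1RN, KDR and EP300 they make 11 genes (0.0753% of those tested), all with higher values with the core. That share is under the one a p of 0.001 gives if no gene differed, so the 8 are described and not called. In the lower direction 0 genes had so small a p. CYRIA, a Rac1-binding protein that restrains actin branching by the WAVE complex, stood at 0.848, 3.1 and 2.21 CPM with dCas9 and at 9.77, 9.44 and 8.92 CPM with the core (log2 2.15 ± 0.39; adjusted p = 0.262, edgeR). DPF3, a BAF chromatin remodelling subunit whose PHD fingers bind acetylated histone tails, stood at 1.41, 2.62 and 1.85 CPM with dCas9 and at 8.19, 6.93 and 6.56 CPM with the core (log2 1.84 ± 0.37; adjusted p = 0.479, edgeR). In both genes the 3 core libraries lay close together and above every dCas9 library. The groups were separate in all 11 genes, and the core was above in 3.89% of all tested genes. The 11 were chosen by p in these same libraries, so nothing is read from the separation. CYRIA passed with DESeq2 (adjusted p = 0.0153), as did IL1RN, KDR and EP300, which made 4 genes (0.0274%).

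NFASC, which encodes the axonal adhesion protein neurofascin, stood at 7.35, 6.2 and 4.43 CPM with dCas9 and at 15.1, 13.7 and 17 CPM with the core (log2 1.32 ± 0.26; adjusted p = 0.479, edgeR). PDE2A, a phosphodiesterase that breaks down cyclic AMP and cyclic GMP, stood at 1.98, 3.58 and 3.32 CPM with dCas9 and at 7.13, 12.5 and 9.44 CPM with the core (log2 1.71 ± 0.38). PADI2, an enzyme that converts arginine in proteins to citrulline, had dCas9 values close together, 18.1, 19.1 and 19.6 CPM, against 30.9, 33.7 and 37.8 CPM with the core (log2 0.85 ± 0.20). None of these groups overlapped, with the same limit from the choice by p. The remaining 3 genes were DCAF4L1 (log2 1.56 ± 0.32), CRISPLD2, a secreted cysteine-rich protein (log2 1.51 ± 0.34), and HMGCLL1, a lyase of ketone body synthesis (log2 1.27 ± 0.30). Without dCas9 replicate 3 the log2 fold changes of the 11 genes ran from 0.87 to 3.91. Most had few reads with dCas9: 7 of the 11 had a mean under 5 CPM there, as had 1730 of all tested genes (11.8%).

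**Figure D1:**
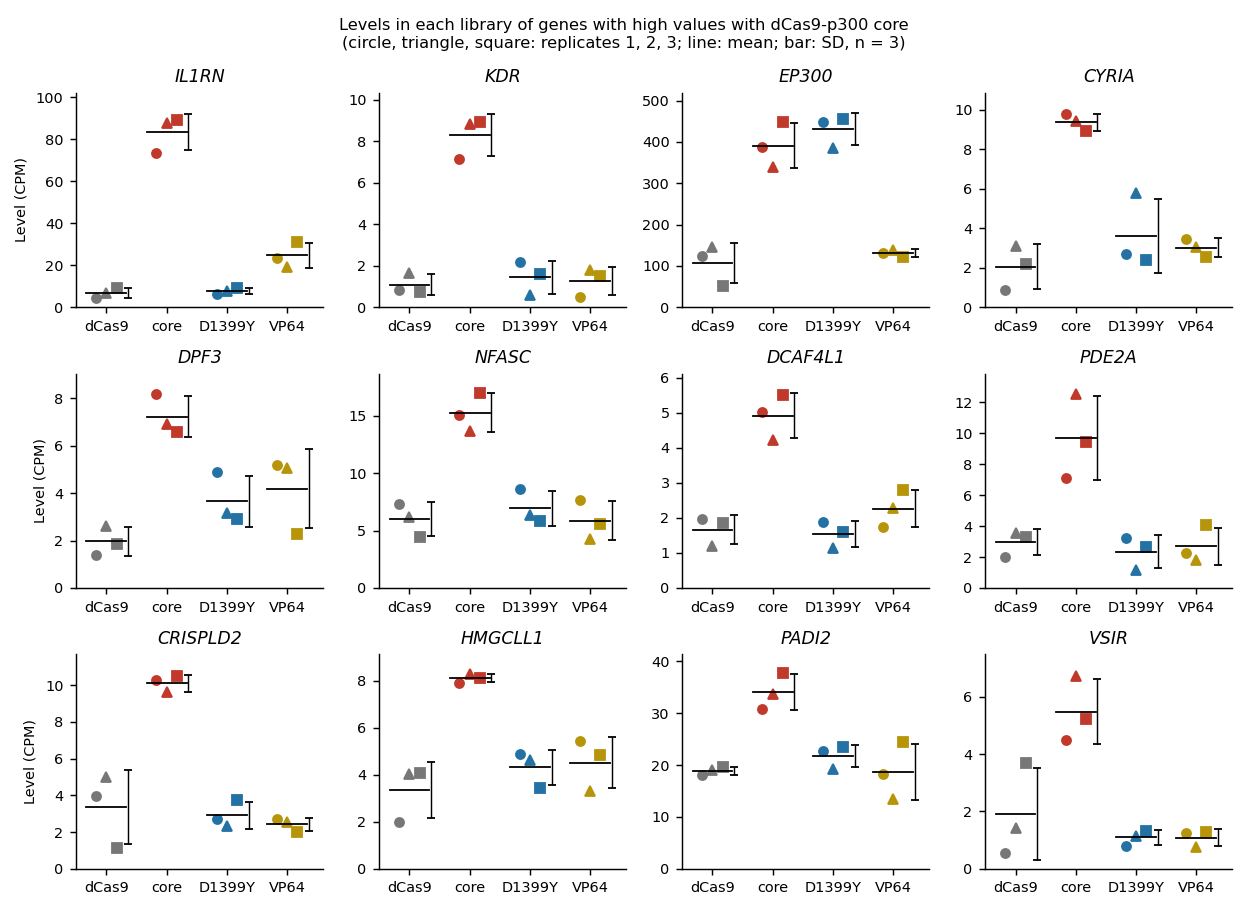
Levels in CPM of genes with high values with the core, 1 panel a gene with its own axis from 0, in the 4 groups. Points are libraries, lines are means and bars are the SD (n = 3); IL1RN core libraries sit between 73.4 and 88.9 CPM, above all others.

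The next genes in order, each at an adjusted p of 0.879 (edgeR), served varied roles. PHOSPHO1, a phosphatase of bone mineralization, had log2 1.69 ± 0.42, NEDD9, a scaffold of focal adhesions, 1.72 ± 0.44, and DYSF, a membrane repair protein of muscle, 1.29 ± 0.34. VSIR, the immune checkpoint protein VISTA, stood at 0.565, 1.43 and 3.69 CPM with dCas9 and at 4.49, 6.74 and 5.24 CPM with the core. Its highest dCas9 value was in replicate 3, and its log2 fold change went from 1.64 with that library to 2.40 without it.

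The same genes were set beside the other fusions, which share the core libraries with the main comparison. Of the 11 genes, the 10 other than EP300 had 3 core libraries above 3 D1399Y libraries and above 3 dCas9-VP64 libraries, so the core libraries were the highest 3 of the 12. These genes were chosen for high values in the same 3 core libraries, so the count is partly set by that choice and nothing is read from it. Over all tested genes, unselected, the shares were 5.41% and 5.65%. The 10 genes' log2 fold changes ran from 0.64 to 3.42 against D1399Y and from 0.78 to 2.69 against dCas9-VP64. IL1RN stood at 6.5, 7.5 and 9.29 CPM with D1399Y. With dCas9-VP64 it stood at 23.5, 19.3 and 31.2 CPM, above every dCas9 library and under every core library. IL1RN alone passed in each (0.00684% of genes tested): log2 3.42 ± 0.25 against D1399Y (adjusted p = 2.96e-05, edgeR) and 1.76 ± 0.22 against dCas9-VP64 (adjusted p = 0.0215, edgeR). The IL1RN call against dCas9-VP64 was lost within CV41, with the pool as a term and without any of 6 single libraries: core replicate 1, 2 or 3, dCas9-VP64 replicate 1 or 2, or D1399Y replicate 2. Without dCas9 replicate 3, which belongs to neither group compared here, 5 genes passed against D1399Y and 5 against dCas9-VP64, with IL1RN, KDR, CRISPLD2 and VSIR in both. KDR stood at 2.17, 0.577 and 1.59 CPM with D1399Y and at 0.495, 1.78 and 1.52 CPM with dCas9-VP64, within the range of the dCas9 libraries or near it. CYRIA levels were 2.71, 5.77 and 2.39 CPM with D1399Y and 3.47, 3.05 and 2.54 CPM with dCas9-VP64. DPF3 levels were 4.87, 3.17 and 2.92 CPM with D1399Y and 5.2, 5.08 and 2.28 CPM with dCas9-VP64. All were under the core libraries. For DPF3, every D1399Y library was also above every dCas9 library, as were dCas9-VP64 replicates 1 and 2.

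Across all genes, fold changes were small and their errors followed the level. The median absolute log2 difference was 0.17 and the median standard error 0.21, with 0.31 among the lowest 4871 genes by mean CPM and 0.16 among the highest 4871. Differences of at least 1 on the log2 scale numbered 73 higher and 22 lower. The 3 core libraries lay all above the 3 dCas9 libraries for 568 genes (3.89%) and all below for 442 (3.02%). Among the lowest 4871 genes these numbers were 296 above and 153 below, and among the highest 4871 they were 92 and 120.

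**Figure D2:**
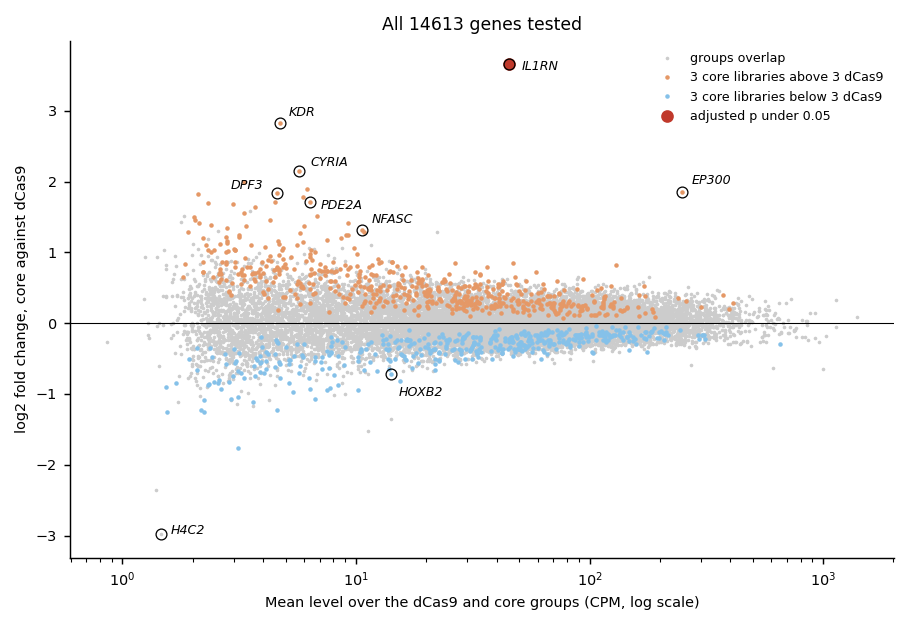
Log2 fold change of the core against dCas9 for each of 14613 tested genes, against its mean level in CPM on a log axis. Orange and blue points are the 568 and 442 genes whose groups do not overlap, circles mark genes named in the text, and IL1RN is the 1 gene past the threshold.

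Genes with very low counts lay outside the test. Among 5248 features below the filter with any count in the 6 libraries, 858 had counts with the core and 0 with dCas9, and 539 had the reverse. The core group held more reads in all. GABRR2, a subunit of a GABA receptor, had 14 reads over the core libraries and 0 with dCas9, against 1 with D1399Y and 3 with dCas9-VP64. Its level over the core libraries was 3.77 times a floor of 3 counts over the dCas9 group (0.291 CPM). The ratio carries no error for the core count and is not a lower limit. HHIPL2, KCNIP1, a potassium channel regulator, and MAGEB2 had 11 reads each and stood at 2.96 times the same floor. DGKG and TNK1 had 8 reads each. These genes were chosen for their 0 with dCas9 and the most reads with the core. That choice raises the ratios, and no test was made.

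No gene passed in the lower direction, with edgeR, DESeq2 or without dCas9 replicate 3. The smallest p there belonged to HOXB-AS3 (log2 -0.87 ± 0.24), and HOXB2, a homeobox factor of hindbrain patterning from the same gene cluster, was close to it. HOXB2 stood at 15.8, 14.5 and 22.5 CPM with dCas9 and at 8.98, 11.2 and 11.5 CPM with the core (log2 -0.72 ± 0.21; adjusted p = 0.879, edgeR). The groups did not overlap, dCas9 replicate 3 was highest, and the log2 fold change was -0.52 without it. HOXB-AS3 is antisense and no source used here gives the strand setting, so its reads cannot be told apart from those of overlapping genes.

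Other genes of small p in that direction also had an adjusted p of 0.879 (edgeR). THAP3 stood at 73.8, 58.2 and 86.7 CPM with dCas9 and at 53.9, 49.1 and 50.1 CPM with the core (log2 -0.51 ± 0.15), and D1399Y libraries at 45.9 to 52 CPM overlapped the core. LBX1, a homeobox factor of muscle and spinal cord, had log2 -1.08 ± 0.35, and SULT2B1, a cholesterol sulfotransferase, -0.85 ± 0.28. The U3 small nucleolar RNA copies SNORD3B-1 (-1.23 ± 0.41) and SNORD3C (-0.93 ± 0.29) are near-identical, and their counts are uncertain. PXN-AS1 (-0.97 ± 0.31) is another antisense gene with the same limit. H4C2, a histone gene, had the most negative log2 fold change of all tested genes, -2.98 ± 1.05, yet its groups overlapped, with 3.39, 3.58 and 0.738 CPM against 0.792, 0 and 0.262 CPM.

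**Figure D3:**
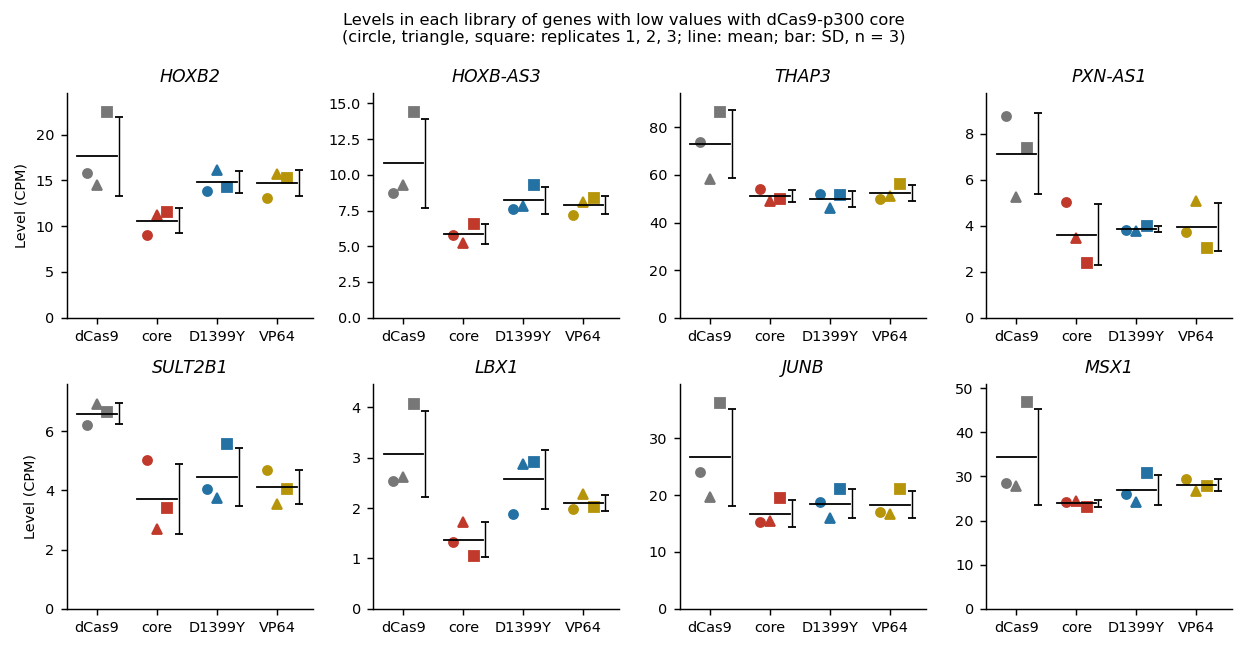
Levels in CPM of 8 genes with low values with the core, 1 panel a gene with its own axis from 0, in the 4 groups. Points are libraries, lines are means and bars are the SD (n = 3); HOXB2 core libraries lie at 8.98 to 11.5 CPM and dCas9 libraries at 14.5 to 22.5 CPM, the highest being replicate 3.

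Among the 6 libraries dCas9 replicate 3 stood apart. It had the lowest total count, 2442960, against 3633590 to 5154627 in the other 5. It was the highest of the 6 libraries for 35.9% of tested genes and the lowest for 37.6%, where the other libraries took 8.7% to 17.2% and 7.97% to 18.1%. The median SD of log2 CPM was 0.34 in the dCas9 group, 0.15 in dCas9 replicates 1 and 2 alone and 0.15 in the core group.

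Without that library 2 genes passed in the higher direction (0.0135% of 14764 tested), IL1RN (log2 3.91; adjusted p = 7.34e-07, edgeR) and EP300, and 0 in the lower. The same pair passed without dCas9 replicate 2. The median absolute log2 difference dropped to 0.11. Against dCas9 replicates 1 and 2 alone, the 3 core libraries were all above for 8.99% of genes and all below for 8.49%. Among the lowest 4871 genes by level the share above 0 went from 52.9% to 61.3%, and among the highest 4871 from 57.1% to 32.8%. So among genes of high level the share above 0 was over that of all genes with this library and under it without. The total count of this library moves with these shifts, and its part in them was not tested.

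**Figure D4:**
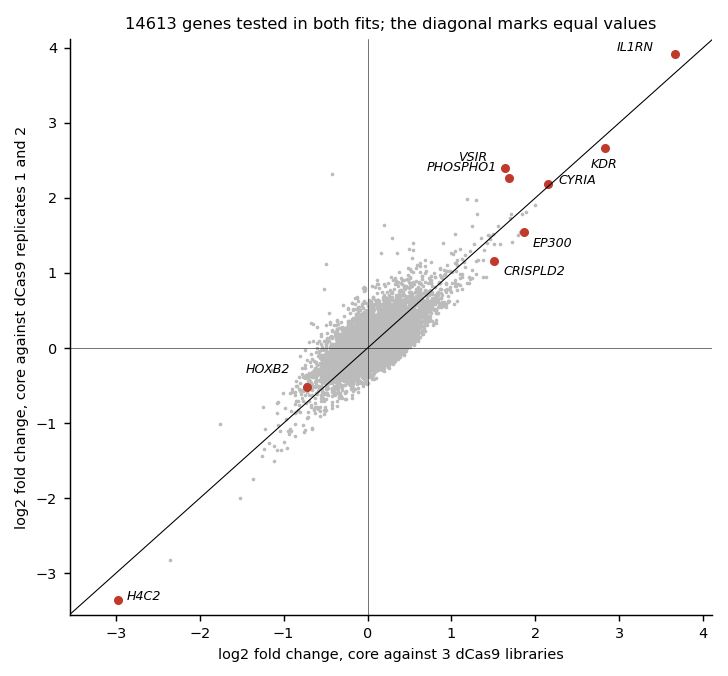
Log2 fold change of the core against dCas9 without dCas9 replicate 3 (vertical axis) against that with all libraries (horizontal axis), for the 14613 genes tested in both fits, with the line of equal values. Both axes use the same 3 core libraries; IL1RN is at 3.66 with all libraries and 3.91 without replicate 3.

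Gene lists were read by their counts above 0 and their medians, beside 52.5% and 0.02 over all genes with all libraries and 48.8% and -0.00 without dCas9 replicate 3. IL1RN, the 1 gene past the threshold in edgeR with all libraries, is in none of the 33 lists. No list member passed there, and nothing is read from that. Chromatin readers and writers came first. The list of p300, CBP and their interaction partners had a median of 0.21, with 16 of 18 members above 0, EP300 with its possible plasmid reads among them. Without dCas9 replicate 3 it had 9 of 18 and 0.01. CITED2, which binds a domain of p300 and CBP and limits hypoxia responses, stood at log2 -0.50 ± 0.22, with 142, 77.7 and 70.1 CPM against 67.1, 63.9 and 74.5 CPM, where dCas9 replicate 1 was high and the groups overlapped. Other histone acetyltransferases had 5 of 12 above 0 at -0.04, and 4 of 12 at -0.04 without dCas9 replicate 3. The highest of that list was TAF1, a bromodomain subunit of the general transcription factor TFIID. It stood at 0.39 ± 0.21, and at 0.17 without that library. BAF subunits had 16 of 26 above 0 at a median of 0.03, with SMARCC2 at 0.25 ± 0.15 and ARID1B at 0.22 ± 0.14, far under DPF3 of the same list, and 18 of 26 at 0.04 without that library. Deacetylases and sirtuins had 7 of 17 above 0 at -0.06, and 8 of 17 at -0.01 without it. HDAC9 stood at 0.90 ± 0.47 and HDAC10 at -0.64 ± 0.31, and at 0.56 and -0.29 without it.

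Among signalling lists, the list for interleukin 1 signalling, blocked by the product of IL1RN, had 11 of 15 above 0 and a median of 0.13, and 7 of 15 and -0.02 without it. The kinase gene IRAK4 stood at log2 0.31 ± 0.15, and at 0.19 without it. Wnt pathway targets and inhibitors had 12 of 18 above 0 at 0.19, and 10 of 18 at 0.07 without dCas9 replicate 3. In 4 of the 18 (22.2%) the core libraries were all above the dCas9 libraries, against 3.89% of all genes. This was the largest such share among the 27 lists with at least 9 tested members. The lists were written with earlier results known, so nothing is read from it. NKD1, an inhibitor that binds Dishevelled, stood at 0.72 ± 0.32, and at 0.43 without that library. ZNRF3, a ligase that removes Wnt receptors, stood at 0.42 ± 0.18 and 0.24, and the transcription factor TCF7 at 0.36 ± 0.16 and 0.39. Notch pathway genes had 7 of 18 above 0 at -0.05, and 4 of 18 at -0.05 without it. Receptor tyrosine kinases had 18 of 25 above 0 at 0.11, and 11 of 25 and -0.02 without dCas9 replicate 3. EGFR stood at 44.9, 50.6 and 8.12 CPM with dCas9 against 46.5, 43.5 and 57.2 CPM with the core, with replicate 3 alone low.

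Neuronal adhesion molecules, the list that holds NFASC, had a median of 0.36 and all 14 of its 14 tested members above 0. Without dCas9 replicate 3 the count was 11 and the median 0.10, and the median log2 ratio of its members in that library to their mean over the 6 libraries was -0.68. CNTNAP2, a neurexin-like protein of axons, stood at 22.3, 42.9 and 13.3 CPM with dCas9 and at 43.8, 50.3 and 45.9 CPM with the core (log2 0.80 ± 0.28, and 0.51 without dCas9 replicate 3). The core libraries were above all dCas9 libraries, by little for replicate 2. Phosphodiesterases, the list of PDE2A, had 12 of 15 above 0 at 0.18, and 9 of 15 at 0.02 without that library. The WAVE complex and its CYRI regulators, the list of CYRIA, had 10 of 13 above 0 at 0.10, and 4 of 13 at -0.01 without it. RAC1, the GTPase that CYRIA binds, stood at -0.22 ± 0.13, and at -0.07 without it.

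Ribosomal protein genes, on the lower side, had 0 of 30 above 0, at a median of -0.28 with all libraries and -0.12 without dCas9 replicate 3. The groups overlapped in all 30. Their median log2 ratios to the mean of the 6 libraries were 0.12, -0.15 and 0.46 in dCas9 replicates 1, 2 and 3. In core replicates 1, 2 and 3 they were 0.05, -0.30 and -0.17. Immediate early and CREB targets, genes of rapid response to signals, had 5 of 23 above 0 at -0.21, and 5 of 23 at -0.17 without dCas9 replicate 3. JUNB, an AP-1 subunit, stood at 24, 19.6 and 36.2 CPM with dCas9 and at 15.3, 15.4 and 19.4 CPM with the core (log2 -0.66 ± 0.23, and -0.38 without it). Its groups did not overlap; core replicate 3 lay just under dCas9 replicate 2. Developmental transcription factors had 7 of 33 above 0 at -0.12, and 11 of 33 at -0.13 without dCas9 replicate 3. Homeobox and T-box members of that list included MSX1 (log2 -0.51 ± 0.20) and TBX2 (-0.53 ± 0.24). Both were highest in dCas9 replicate 3, at 46.9 and 26.2 CPM, and without it they stood at -0.24 and -0.31. Hypoxia and glycolysis genes had 2 of 20 above 0 at -0.14, and 0 of 20 at -0.24 without that library. Histone genes had 1 of 10 above 0 at -0.33, and 2 of 10 at -0.37 without it. In these last lists dCas9 replicate 1 was the high library, at median log2 ratios to the mean of the 6 libraries of 0.45 for hypoxia genes and 0.43 for histone genes, and its part in them was not tested.

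**Figure D5:**
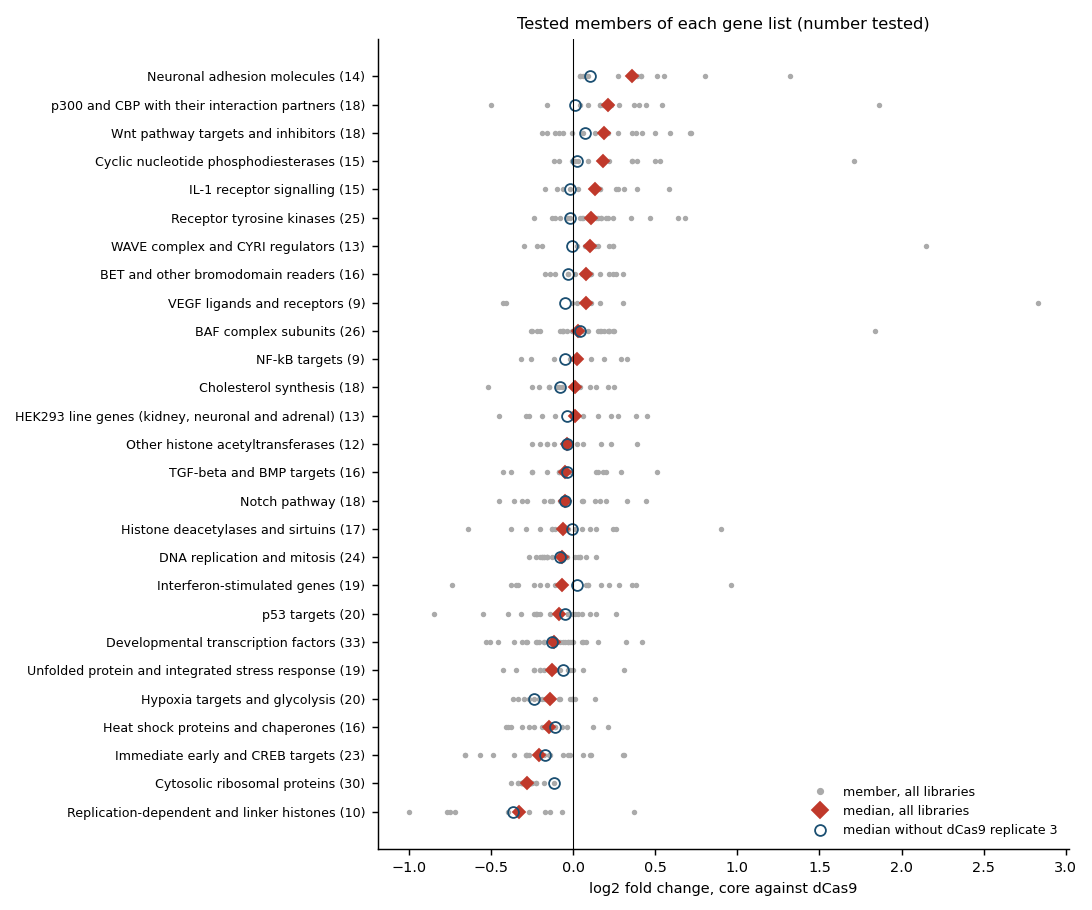
Log2 fold change of the core against dCas9 for the tested members of the 27 gene lists with at least 9 tested members. The plot gives medians with all libraries and without dCas9 replicate 3; the neuronal adhesion median goes from 0.36 to 0.10.

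Genes listed for the labelled line had counts in both groups, some of them few. All 13 HEK293 genes, among them the intermediate filament gene VIM, were tested, with summed levels of 699 to 979 CPM with dCas9 and 705 to 884 CPM with the core. Fibroblast markers summed to 129 to 180 CPM and 152 to 167 CPM, with FAP and THY1 at 0. Most of that sum was FBLN1, at 103 to 151 CPM with dCas9, and COL6A3, a chain of type VI collagen, had 0.283, 3.58 and 1.11 CPM with dCas9 and 3.17, 5.39 and 7.6 CPM with the core (log2 1.58 ± 0.66; adjusted p = 0.879, edgeR; overlapping groups). Epithelial markers summed to 158 to 219 CPM and 141 to 184 CPM, with KRT5 and KRT14 among those at 0. Immune markers summed to 22.9 to 34.3 CPM and 22.1 to 29 CPM, with CD3E, MS4A1 and TYROBP at 0.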

How the data were processed

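RNA-seq libraries of HEK293T cells were analysed from 1 table of raw counts per library. The authors deposited whole-number read counts for 40709 RefSeq transcripts; per the submitters' processing notes the build was hg19 and the tools were Bowtie2, SAMtools and CASAVA, with DESeq2 1.6.2 in R 3.1.2. No source used here gives the step each tool served, the strand setting or the rule for reads shared by isoforms. Transcripts were named through RefSeq (39324) and GENCODE (517) tables of GRCh38, so no gene coordinates are given for the counts. The 868 others (1.07% of counts) kept their identifier. Counts were summed per gene to 24395 features. Total counts ran from 2442960 to 5154627, which limits genes under about 5 CPM to few reads. The labels put core replicate 3 in pool CV42 and the other 5 compared libraries in CV41.

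Differences were tested with edgeR 4.0.16 (R 4.3.3; TMM; filterByExpr at its minimum count, 10, and minimum total, 15; quasi-likelihood test; 1 fit of group means over all 12 libraries; 14613 genes tested), adjusted by Benjamini-Hochberg over all of them, with a threshold of 0.05. Standard errors are the log2 fold change over the root of the F statistic. Genes named are IL1RN, KDR and EP300, and genes past the threshold in any of the comparisons or without dCas9 replicate 3. Also named are the next 15 higher and 10 lower genes by p, and up to 4 members of each list by p. The last are up to 6 genes of low count with 0 in dCas9 and the most reads with the core. VWF, CDH5, ESAM, PECAM1, TEK, ENG, FBLN1 and the markers at 0 were named from their lists after their values were seen. The libraries, lists and rule were chosen with earlier results of these data known. BRD1 and CECR2 of the lists were not analysed here, and some genes that the rule or the marker lists select are not reported here.

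Alternatives were DESeq2 1.42.0, limma-voom 3.58.1, upper-quartile and RLE factors, other filters, thinned counts, the highest transcript per gene, a replicate block, fits of 2 groups or of CV41 alone, the pool as a term, and leaving out each library. The fit was also run on simulated counts with known changes, placed only in genes above a count floor. That run covers neither genes of few reads nor the unlike values of dCas9 replicate 3, and no result of it is used here. Python 3.11.15, pandas 2.3.3 and matplotlib 3.10.9 were also used.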

Additional observations from a re-analysis of the deposited data

How the results depend on the processing

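IL1RN passed for the core against dCas9 under all 26 alternatives, at log2 3.40 to 3.99 and an adjusted p of 2.72e-35 to 0.00555. The count of genes past the threshold there, 1 in the edgeR fit, was 4 with DESeq2 (IL1RN, EP300, KDR and CYRIA), 3 without a filter, with 1 CPM in at least 6 libraries or with the highest transcript per gene (IL1RN, EP300 and KDR), and 2 with RLE factors, upper-quartile factors, limma-voom or counts thinned to the smallest total (IL1RN and EP300). Leaving out 1 library at a time gave 1 to 2, with EP300 added without dCas9 replicate 2 or 3. Genes with an unadjusted p under 0.05 numbered 454 with all libraries and 2068 without dCas9 replicate 2. No alternative placed a gene past the threshold in the lower direction. After the data were seen, 2 alternatives were added: leaving out dCas9 replicate 3 with core replicate 2 gave 2 genes, and thinning after dCas9 replicate 3 was left out gave 2. KDR passed in 4 alternatives (adjusted p from 0.00298 to 0.86), EP300 in 12 (6.97e-08 to 0.951) and CYRIA in 1 (0.0153 to 1).

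Against D1399Y the count went from 1 to 4 with the compared groups alone, with DESeq2 or with thinning after dCas9 replicate 3 was left out, and to 2 without that library and core replicate 2. Leave-one-out counts were 1 to 5. Against dCas9-VP64 it was 6 with the compared groups alone, 5 with DESeq2 or with that thinning, 4 with both libraries left out, 3 without a filter, 2 with upper-quartile factors, and 0 within CV41 or with the pool as a term (191 and 218 genes at an unadjusted p under 0.05). Leave-one-out counts were 0 to 5. The cause was not tested.

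With the replicate number as a block the count was 1 in each comparison, IL1RN each time. Same-numbered core and dCas9 libraries had correlations of deviations of 0.112, 0.319 and -0.176, so the numbers were not taken as pairs, and replicate 1 and replicate 3 of the core did not correlate best with their own number. Of 1130 values of 44 other named genes under alternatives, with EMCN not counted, 17 passed the threshold and 4 changed sign, all of FLT1. Its log2 fold change, 0.16 with all libraries, was -0.08 with the highest transcript per gene, -0.18 without dCas9 replicate 3 and core replicate 2, -0.19 with thinning after dCas9 replicate 3 was left out, and -0.13 to 0.42 with 1 library left out, the lowest being without dCas9 replicate 3. Of 858 list medians 20, in 7 of 33 lists, moved by more than the spread between libraries. Depth limits genes of low level most: under 5 CPM a library holds few reads, and differences there were not detectable unless large.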
